A study of Mus musculus with 2 samples.

Results

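The genes of oxidative phosphorylation were followed in immune cells from the gums of mice, with the genes carried by mitochondrial DNA set against those carried by the nucleus. Members were taken by gene symbol alone, as the structural subunits of respiratory complexes I to IV and of ATP synthase (complex V). The rule found 97 of the 32285 genes in the files, of which 13 were mitochondrially encoded and 84 nuclear. The nuclear members comprised 37 of complex I, 4 of complex II, 8 of complex III, 18 of complex IV and 17 of complex V, and the mitochondrially encoded members 7, 0, 1, 3 and 2. The values came from 2 single-cell RNA libraries, each of the immune cells found in gingiva of C57BL/6 mice, in a study of experimental periodontitis. One library was from mice labelled Otud1-/-, Otud1 being the gene of a deubiquitinase, and the other from wild-type (WT) mice. The number and sex of the animals, their age, whether both groups had periodontitis induced, and which part of Otud1 the deletion removed were not stated in the labels. Cells were captured on the 10x Genomics platform, which marks each transcript at its 3′ side with the barcode of its cell and with a molecule tag, so that a count is a number of molecules (UMIs).

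With 1 library per genotype there was no replicate, so no difference was tested. Intervals are 95% intervals. Those of levels, shares and ratios cover counting error only. Those of medians over members reflect the spread between genes, which are not independent replicates. Genotype cannot be told apart from any other difference between the libraries. Otud1 transcripts went against the label over all kept cells, with 1247 UMIs (33.1 CPM, UMIs per 1000000 UMIs of the class) in the library labelled Otud1-/- and 710 UMIs (18.6 CPM) in the WT library. In neutrophils, to be described most closely, it had 8.97 CPM (29 UMIs, 6.00 to 12.9) in the library labelled Otud1-/- and 12.8 CPM (25 UMIs, 8.25 to 18.8) in WT, so the intervals overlapped. The 3′ tags may lie outside the deleted part, so this level checks nothing about the deletion itself, and whether the labels of the libraries were exchanged cannot be told from these files. The genotype is therefore given throughout as the label of the library. The library labelled Otud1-/- had 8109 barcodes and a median of 3716 UMIs, and the WT library had 13267 barcodes and a median of 2241 UMIs. The libraries shared 37 barcode sequences, 26 of them among kept cells. Kept cells numbered 6486 (37697978 UMIs) in the library labelled Otud1-/- and 11414 (38216282 UMIs) in the WT library, and cell classes were rebuilt from marker genes with every member left out of the clustering. A class name means that its clusters resembled that cell type by those markers, so the cells are neutrophil-like, B-like and so on.

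Oxidative phosphorylation couples the oxidation of NADH and succinate to ATP synthesis in the inner mitochondrial membrane. Complexes I and II pass electrons to ubiquinone, complex III passes them to cytochrome c and complex IV to oxygen, and the proton gradient that complexes I, III and IV build drives ATP synthase. Complexes I, III, IV and V are mosaics whose core membrane subunits are encoded by mitochondrial DNA and whose remaining subunits are nuclear, whereas complex II is wholly nuclear. Mitochondrial genes are transcribed as long polycistronic RNAs by a dedicated polymerase, while nuclear subunits are transcribed gene by gene. Mature neutrophils are known to hold few mitochondria and to rely largely on glycolysis, and lymphocytes and macrophages shift between both routes with activation.

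The compactness of the mitochondrial genome bears on how its members can be counted. mt-Nd4l and mt-Nd4, both membrane subunits of complex I, overlap by 7 bases, at chrM:10167-10173 on the + strand (GRCm38, from GENCODE M21 transcripts). The window chrM:10156-10184 is given here with the shared bases in capitals, which open with the start codon of mt-Nd4 and close the mt-Nd4l transcript.
mt-Nd4l and mt-Nd4: aacctactacaATGCTAAaaattattctt
mt-Atp8 and mt-Atp6, subunits of ATP synthase, share 43 bases in the same way, and the 3′ ends of mt-Nd5 and mt-Nd6 overlap on opposite strands at chrM:13552-13565. No source used here says whether strand was used in counting. The split of reads between the members of these 3 pairs is therefore uncertain.

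The nuclear members are scattered over the chromosomes, and part of them are known to be reached by shared factors such as nuclear respiratory factor 1 (NRF1), the ETS family factor GABP and YY1. Promoter windows from RefSeq (GRCm38.p6), running from 250 bases before to 50 bases after each start, were found for 68 of the 84 nuclear members. The NRF1 motif, 10 letters with 1 free position, was present on either strand in 17 of 68 members (25%), against 5.19% of all 27025 genes with a window. AANATGGC, for YY1, was present in 17 members (25%, against 6.96% of genes), and CCGGAAGT, for ETS factors, in 5 (7.35%, against 4.31%). The following windows hold the NRF1 motif, in capitals, for the members with a motif that lay at either end of the neutrophil comparison described further on (Atp5k and Ndufa5 at the low end, Sdhd at the high end) and for Sdha, which holds it 3 times. Ndufb4 also holds it 3 times and is not shown.
Atp5k, chr5:108434430-108434459, − strand: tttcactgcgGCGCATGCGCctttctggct
Ndufa5, chr6:24527697-24527726, − strand: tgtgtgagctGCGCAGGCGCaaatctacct
Sdhd, chr9:50603909-50603938, − strand: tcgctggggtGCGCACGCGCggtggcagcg
Sdha, chr13:74350319-74350348, − strand: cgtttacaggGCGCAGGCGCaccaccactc
Sdha, chr13:74350276-74350305, − strand: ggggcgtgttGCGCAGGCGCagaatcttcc
Sdha, chr13:74350231-74350260, − strand: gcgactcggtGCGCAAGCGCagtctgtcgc
Members with and without the NRF1 motif had close medians of the log2 ratio between libraries, at −0.95 (17 members) and −0.79 (46) in neutrophils and 0.14 (17) and 0.17 (47) in B cells. A motif match is a description of the letters and not a binding site.

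Over all kept cells, the 13 mitochondrially encoded members held 4.02% of UMIs in the library labelled Otud1-/- and 4.14% in the WT library. The 84 nuclear members held 1.61% of UMIs in the library labelled Otud1-/- and 1.75% in the WT library. The nuclear members Cox7b2 and Cox8b had 0 UMIs in kept cells of both libraries, 5 had a mean under 1 CPM, and 77 had a mean of at least 20 CPM. By complex, the mitochondrially encoded members of complex IV, the catalytic core of cytochrome c oxidase, summed to 20479 CPM in the library labelled Otud1-/- and 20907 CPM in the WT library. Those of complex I summed to 7920 CPM in the library labelled Otud1-/- against 8692 CPM in WT, mt-Cytb of complex III had 3984 against 3948 CPM, and those of complex V summed to 7833 against 7810 CPM. Nuclear complex I summed to 4501 CPM in the library labelled Otud1-/- against 4904 CPM in WT. Nuclear complex II summed to 274 against 267 CPM, complex III to 1614 against 1710 CPM, complex IV to 4414 against 4790 CPM and complex V to 5299 against 5787 CPM. A tag counts a transcript once whatever its length, so these are sums of transcripts and were not divided by length.

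The shares of mitochondrially encoded and of nuclear transcripts both differed between cell classes, and in neutrophils both also differed between libraries. Among the 6 main classes of the library labelled Otud1-/-, B cells were highest, at 5.67% of UMIs (exact binomial interval 5.66 to 5.68), followed by T cells (4.29%), NK cells (3.33%), monocytes and macrophages (2.91%), dendritic cells (2.79%) and neutrophils (1.46%, 1.45 to 1.47). In the WT library B cells were again highest (5.48%), then T cells (4.42%), NK cells (3.69%) and monocytes and macrophages (3.54%). Dendritic cells and neutrophils of the WT library did not differ beyond counting error, both at 3.36% (3.34 to 3.38 and 3.34 to 3.39). Nuclear shares of the library labelled Otud1-/- lay between 1.42% (B cells) and 1.97% (NK cells) outside neutrophils, which had 0.711% (0.702 to 0.720). In the WT library they lay between 1.34% (B cells) and 1.86% (dendritic cells), against 1.10% (1.08 to 1.11) in neutrophils. Among these 6 classes B cells thus combined the highest mitochondrially encoded share with the lowest nuclear share outside neutrophils in both libraries, with 3.98 mitochondrially encoded UMIs for each nuclear one in the library labelled Otud1-/- and 4.10 in the WT library. Dendritic cells had 1.51 in the library labelled Otud1-/- and 1.80 in the WT library.

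Smaller classes widened this range. Plasma cells, with 86 cells in the library labelled Otud1-/- and 274 in the WT library, had a mitochondrially encoded share of 2.03% in the library labelled Otud1-/- against 2.497% in WT, and a nuclear share of 1.05% against 1.65%. The log2 ratio of their nuclear sum was −0.65 (−0.69 to −0.62), close to that of neutrophils given further on, but on under 100 cells of the library labelled Otud1-/- their single members were not compared. Plasmacytoid dendritic cells (78 in the library labelled Otud1-/- and 628 in WT) had 4.55% mitochondrially encoded UMIs against 4.60% in WT, and 2.10% nuclear UMIs against 2.03% in WT. Cluster 7, led by Esco2 and histone genes, had a nuclear share above those of the 6 main classes in both libraries, at 2.29% in the library labelled Otud1-/- and 2.33% in the WT library. From cell to cell the 2 shares were related differently by class. The Spearman correlation over cells lay between −0.42 and −0.19 in B, T, NK, monocyte/macrophage and dendritic cells of both libraries, and was 0.01 in neutrophils of the library labelled Otud1-/- and 0.21 in WT neutrophils. In plasma cells it was −0.15 in the library labelled Otud1-/- and 0.26 in WT, and in 74 WT erythroid cells it was 0.33. Both shares are taken from the same total of each cell, so part of any negative value follows from their construction.

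**Figure D1:**
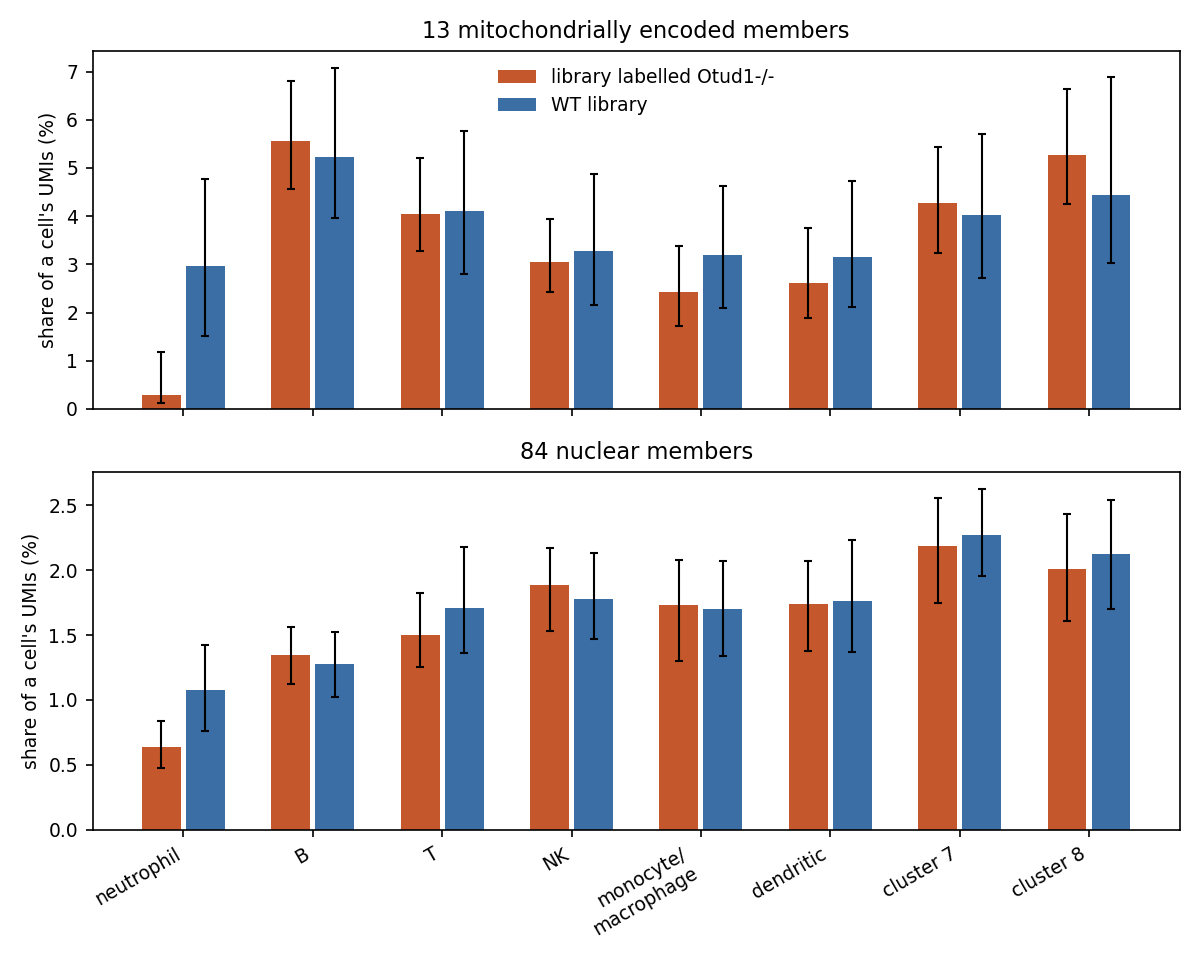
Percent of a cell's UMIs from the 13 mitochondrially encoded members (top) and the 84 nuclear members (bottom) in the 8 groups of cells compared. Bars are medians over cells and error bars run from the lower to the upper quartile of cells, for the library labelled Otud1-/- (left of each pair) and WT (right). The neutrophil bars stand at 0.297% and 2.96% in the top panel, and neutrophils are lowest in the bottom panel in both libraries.

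In neutrophils all 13 mitochondrially encoded members were lower in the library labelled Otud1-/-, and most nuclear members were lower too, by a smaller factor. The class held 893 neutrophils in the library labelled Otud1-/- and 896 in the WT library, with median depths of 2645 and 1612.5 UMIs. It lay in different clusters: cluster 1 held 831 of the 893 cells of the library labelled Otud1-/- but 341 of the 896 WT cells, and cluster 12 held 45 against 436. The sum of the mitochondrially encoded members was lower by a log2 ratio of −1.20 (−1.22 to −1.18), and that of the nuclear members by −0.62 (−0.65 to −0.60). A gene was compared where its mean over the libraries reached 20 CPM with at least 50 UMIs in all, and was counted as higher or lower from a ratio of 1.5. By that count 13 of 13 mitochondrially encoded members and 50 of 73 nuclear members were lower, and 0 and 1 were higher. Of all 4279 genes compared in neutrophils, 32.7% were lower and 15.4% higher. The median log2 ratio was −1.24 (−1.64 to −1.15) for the mitochondrially encoded members and −0.80 (−0.96 to −0.67) for the nuclear ones, beside −0.21 for all genes compared.

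The values of the single mitochondrial genes ran in parallel. Among the catalytic subunits of cytochrome c oxidase, mt-Co1 had 2203 CPM in neutrophils of the library labelled Otud1-/- and 4890 CPM in WT neutrophils. mt-Co2 had 2370 CPM in the library labelled Otud1-/- and 5412 CPM in WT, and mt-Co3 had 3036 and 6646 CPM. The 3 log2 ratios were −1.15, −1.19 and −1.13, at the upper end of the 13. mt-Cytb, the ubiquinol-oxidising cytochrome of complex III, had 1387 CPM in the library labelled Otud1-/- and 3285 CPM in WT (−1.24). mt-Atp6, which forms part of the proton channel of ATP synthase, had 2750 CPM in the library labelled Otud1-/- and 6278 CPM in WT (−1.19). The membrane subunits of complex I spread more widely. mt-Nd1 had 808 CPM in the library labelled Otud1-/- and 1900 CPM in WT, mt-Nd2 had 772 and 1927 CPM, and mt-Nd4 had 812 and 1807 CPM. mt-Nd5 had 178 CPM in the library labelled Otud1-/- and 461 CPM in WT, and mt-Nd3 had 208 and 648 CPM. The lowest ratios belonged to members with few UMIs and short transcripts. mt-Nd4l had 53.5 CPM in the library labelled Otud1-/- and 233 CPM in WT (log2 ratio −2.11, −2.38 to −1.87). mt-Nd6, the only member on the − strand, had 10.2 CPM (33 UMIs) in the library labelled Otud1-/- and 35.7 CPM (70 UMIs) in WT (−1.76, −2.45 to −1.19). mt-Atp8 had 26.6 CPM in the library labelled Otud1-/- and 83.1 CPM in WT (−1.63, −2.04 to −1.26).

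The nuclear members were not lower as one block. In complex I, 27 of 34 members compared were lower, with a median log2 ratio of −0.93. Ndufa5, an accessory subunit of the matrix arm, had 11.4 CPM (37 UMIs) in the library labelled Otud1-/- and 45.4 CPM (89 UMIs) in WT (−1.94, −2.58 to −1.42), the lowest nuclear ratio in neutrophils. Ndufc2, an accessory membrane subunit, had 13.3 CPM in the library labelled Otud1-/- and 49.5 CPM in WT (−1.86), but in the library labelled Otud1-/- its level was below 10% of that in another class. The part of free RNA in its UMIs was not tested, and it is read as uncertain. Ndufa4, which is listed here by its symbol although the protein is now assigned to complex IV, had 65.5 CPM in the library labelled Otud1-/- and 183 CPM in WT (−1.48). Ndufa13 lay within counting error, with 155 CPM in the library labelled Otud1-/- and 171 CPM in WT (−0.14, −0.35 to 0.06). Ndufa7 had 194 CPM in the library labelled Otud1-/- and 190 CPM in WT, and Ndufb9 had 157 and 137 CPM. Both intervals, −0.16 to 0.22 and −0.02 to 0.41, included no difference.

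Complex II, the only complex with no mitochondrially encoded subunit, had 0 of 3 members lower and 1 higher. Sdha, the flavoprotein that oxidises succinate, had 38.0 CPM in the library labelled Otud1-/- and 56.6 CPM in WT (−0.57). Sdhb, the iron-sulphur subunit, had 42.0 CPM in the library labelled Otud1-/- and 60.2 CPM in WT (−0.51). Sdhd, a membrane anchor, had 44.8 CPM (145 UMIs) in the library labelled Otud1-/- and 28.1 CPM (55 UMIs) in WT (0.67, 0.22 to 1.15), and was the only member of either set counted as higher. In complex III, 7 of 8 members were lower (median −0.99). Uqcrh, the hinge protein by which cytochrome c docks, had 216 CPM in the library labelled Otud1-/- and 376 CPM in WT (−0.80). Uqcrq, a small membrane subunit, had 159 CPM in the library labelled Otud1-/- and 182 CPM in WT (−0.19, −0.39 to 0.01).

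Nuclear complex IV had 5 of 11 members lower (median −0.55) and complex V 11 of 17 (median −0.71). Cox4i1, a regulatory subunit of the oxidase, had 353 CPM in the library labelled Otud1-/- and 516 CPM in WT (−0.55). Cox8a, its smallest nuclear subunit, had 570 CPM in the library labelled Otud1-/- and 563 CPM in WT (0.02, −0.09 to 0.13). Among ATP synthase subunits, Atp5e of the rotor stalk had 365 CPM in the library labelled Otud1-/- and 527 CPM in WT (−0.53). Atp5l (subunit g) had 419 CPM in the library labelled Otud1-/- and 422 CPM in WT (−0.01, −0.14 to 0.12), whereas Atp5k (subunit e, its neighbour at the dimer interface) had 47.9 and 165 CPM (−1.78). The 3 genes that encode one and the same mature c-ring subunit were lower alike, with log2 ratios of −1.44 (Atp5g1), −1.53 (Atp5g2) and −1.41 (Atp5g3). Ratios within complex V thus ran from −0.01 (Atp5l) to −1.78 (Atp5k), with intervals far apart.

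**Figure D2:**
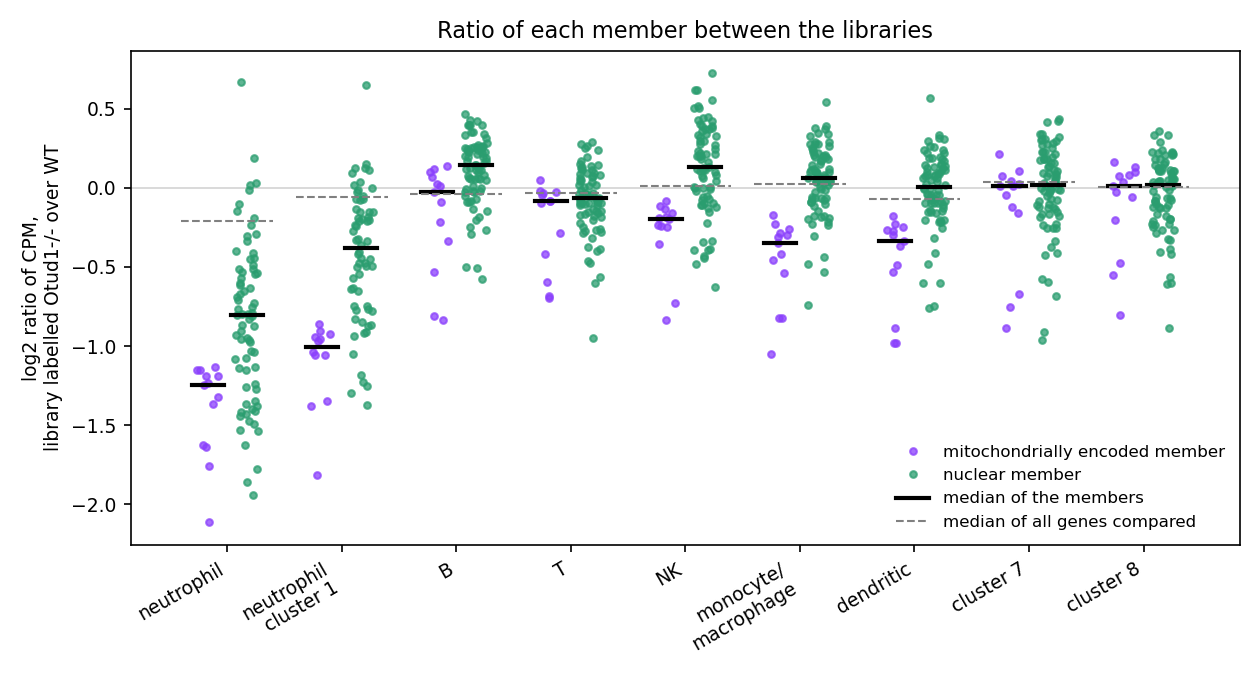
Log2 ratio of CPM, library labelled Otud1-/- over WT, for each member compared (points) in neutrophils, in neutrophil cluster 1 alone and in the other 7 groups, with black bars for the medians of the mitochondrially encoded and nuclear members and dashed lines for the median of all genes compared. Neutrophils have both member medians below the dashed line (−1.24 and −0.80), while the nuclear medians of B, T, NK, monocyte/macrophage and dendritic cells lie between −0.06 and 0.15.

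Most neutrophils of the library labelled Otud1-/- held very few mitochondrial transcripts. In that library 568 of 893 neutrophils (63.6%, 60.4 to 66.8) had less than 0.5% mitochondrially encoded UMIs, against 94 of 896 (10.5%, 8.56 to 12.7) in WT. Of these, 27 cells of the library labelled Otud1-/- and 3 WT cells had 0 such UMIs. At the other end, 168 cells (18.8%) of the library labelled Otud1-/- and 594 WT cells (66.3%) were above 2%. The median over cells was 0.297% in the library labelled Otud1-/- and 2.96% in WT. Thinning every neutrophil to 1000 UMIs, which left out 69 and 151 shallower cells, gave 61.5% (58.1 to 64.9) below 0.5% in the library labelled Otud1-/- and 10.3% (8.24 to 12.7) in WT. By cluster, cells below 0.5% made up 552 of 831 (66.4%, 63.1 to 69.6) in cluster 1 of the library labelled Otud1-/- against 90 of 341 (26.4%, 21.8 to 31.4) in WT, a smaller gap than over the whole class. They made up 10 of 45 in cluster 12 of the library labelled Otud1-/- against 3 of 436 in WT, and 6 of 17 against 1 of 119 in cluster 24. In the other main classes at most 3.03% of cells were below 0.5%. Neutrophils below 0.5% had nearly the same median nuclear share in both libraries, 0.635% in the library labelled Otud1-/- and 0.639% in WT. Those above 2% did not share this over the whole class, as their median nuclear share was 0.622% in the library labelled Otud1-/- and 1.19% in WT. Within cluster 1 these medians were 0.592% (145 cells) and 0.812% (165 cells). Within cluster 12 they were close, at 1.23% (22 cells) and 1.21% (323 cells), and in cluster 24 they were 0.900% (1 cell) and 1.52% (106 cells). The part of the cluster mix in the class-wide gap was not tested.

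**Figure D3:**
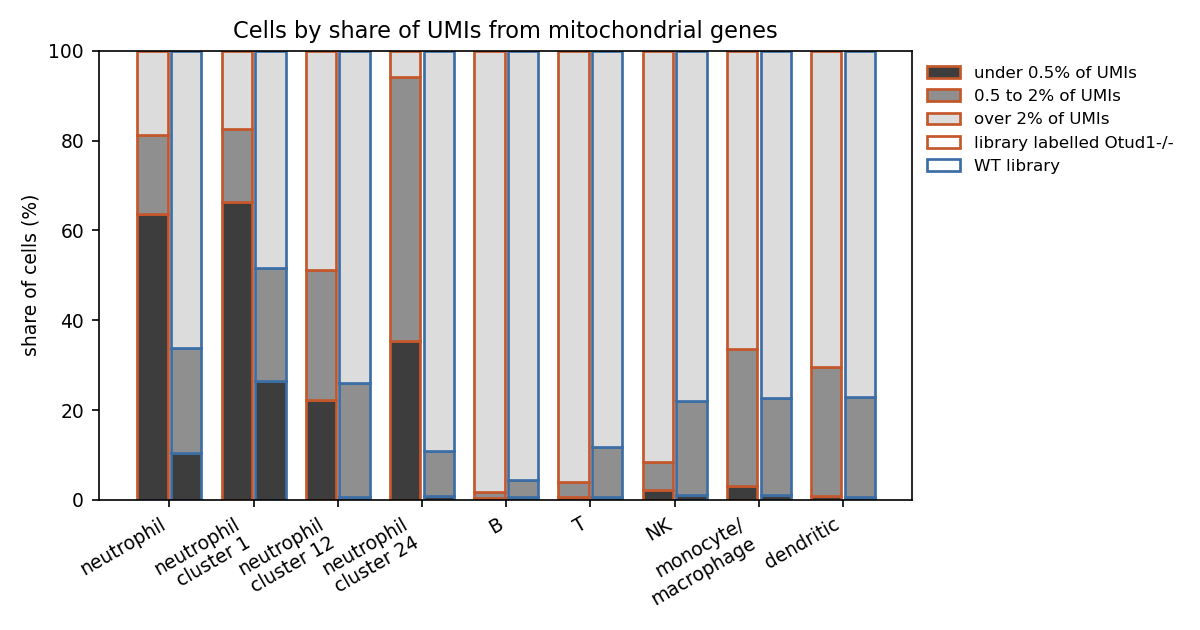
Percent of cells (vertical axis) with under 0.5%, 0.5% to 2% and over 2% mitochondrially encoded UMIs, stacked, in neutrophils, their clusters 1, 12 and 24, and the other main classes, for the library labelled Otud1-/- (left of each pair) and WT (right). The lowest band, under 0.5%, holds 63.6% of neutrophils of the library labelled Otud1-/- and 10.5% of WT neutrophils.

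Several other measures moved with the neutrophil difference, and their part in it was not tested. The summed CPM of the 13 neutrophil markers was 115825 in the library labelled Otud1-/- and 71585 in WT. All 11 B cell markers were detected in the neutrophils of both libraries, at a summed 432 CPM in the library labelled Otud1-/- and 1612 CPM in WT, and the 19 T cell markers summed to 70.2 and 650 CPM. The 18 monocyte and macrophage markers, of which 1 was at 0 in the library labelled Otud1-/-, summed to 812 and 1681 CPM, and the 9 plasma cell markers, again with 1 at 0 there, to 373 and 226 CPM. Cytosolic ribosomal protein genes held 5.50% of neutrophil UMIs in the library labelled Otud1-/- and 15.3% in WT. The ratios also depended on the scaling: TMM factors (trimmed mean of M values) moved every neutrophil log2 ratio up by 0.56, which put the median of all genes compared at 0.35. The medians of the mitochondrially encoded and nuclear members were then −0.68 and −0.24, and 20 of 73 nuclear members were lower beside 16.3% of all genes. The nuclear medians of complexes II and IV lie above 0 on that scale, though below that of all genes. The gap of 0.59 between the nuclear median and that of all genes compared is the same on either scale by construction, because TMM moves every ratio alike.

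Within cluster 1 alone, led by G0s2, Cxcr2 and Acod1, the mitochondrially encoded members were again lower and the nuclear members less so. The mitochondrially encoded share was 1.42% in the library labelled Otud1-/- and 2.76% in WT, and the nuclear share 0.658% and 0.796%. All 12 mitochondrially encoded members compared were lower (median −1.004), as were 21 of 64 nuclear members (median −0.38), with 1 higher. Of all 3848 genes compared in this cluster 18.3% were lower and 7.59% higher, with a median of −0.06. None of the 11 nuclear members of complex IV was lower there, against 11 of 27 in complex I, 3 of 6 in complex III and 7 of 17 in complex V. Atp5k (43.0 CPM in the library labelled Otud1-/- and 106 CPM in WT) and Sdhd (43.7 and 27.7 CPM) were again among the 3 lowest and the 3 highest nuclear members. In cluster 12 the sums of both sets were close between libraries, with log2 ratios of −0.06 and −0.02, but the median cell had 1.45% mitochondrially encoded UMIs in the library labelled Otud1-/- (45 cells) against 3.23% in WT. The B cell markers summed to 4591 CPM in cluster 12 of the library labelled Otud1-/- and 2813 CPM in WT, against 332 and 779 CPM in cluster 1. The T cell markers summed to 76.1 and 786 CPM in cluster 12. The part of RNA from other cells in these sums was not tested. In cluster 24 the mitochondrially encoded sum had a log2 ratio of −1.57 (1.19% of UMIs in 17 cells of the library labelled Otud1-/- against 3.53% in 119 WT cells) and the nuclear sum −0.26. Among neutrophils with 0 UMIs of the B, T and plasma cell markers (411 in the library labelled Otud1-/- and 123 in WT, a restriction added after the data were seen), the mitochondrially encoded share was 0.991% against 2.09%. The nuclear median in these cells was −0.37 beside 0.09 for all genes, with 14 of 50 nuclear members lower beside 12.5% of 2580 genes.

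Neutrophils also stood apart from the other classes within each library. Members were included where their median level over B, T, NK, monocyte/macrophage and dendritic cells reached 20 CPM in both libraries. No minimum was set in neutrophils. For each such member the neutrophil level was set against that median in the same library. In the library labelled Otud1-/- this was 40.7% at the median for the 13 mitochondrially encoded members (30.3% to 47.0%) and 32.9% for 76 nuclear members (10.9% to 92.6%). In the WT library it was 91.0% (68.8% to 103%) and 60.4% (41.7% to 91.2%). Neutrophils were the lowest of the 6 classes for 70 of 76 nuclear members in the library labelled Otud1-/- and for 64 in WT, but for the mitochondrially encoded members in 13 of 13 and 6 of 13. Members were admitted by their level in the other classes, which favours a low rank of neutrophils. The same count over all genes was not made, so these counts have no background share beside them. Above 75% were 7 nuclear members in each library, and 5 of them were shared: Ndufa7 (92.6% in the library labelled Otud1-/- and 91.2% in WT), Cox8a (90.8% and 86.8%), Atp5md (83.1% and 78.2%), Ndufb9 (81.1% and 83.3%) and Atp5l (78.7% and 81.6%). The 4 lowest values in the library labelled Otud1-/- were in complex I, with 10.9% for Ndufa9 (64.6% in WT), 11.3% for Ndufc2 (41.7% in WT), 12.4% for Ndufa5 (51.2% in WT) and 13.5% for Ndufa11 (44.4% in WT). Ndufa9 rests on 17 UMIs in these neutrophils, and its level, like that of Ndufc2, was below 10% of that in another class. By complex, the medians were 29.4% (I), 47.5% (II), 32.4% (III), 38.2% (IV) and 32.2% (V) in the library labelled Otud1-/-, and 60.0%, 60.8%, 61.0%, 69.8% and 55.6% in WT. The order of the nuclear members was partly shared between libraries, with a Spearman correlation of 0.69 over 76 members, which have their libraries and classes in common.

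In B, T, NK, monocyte/macrophage and dendritic cells the sums of both sets differed less between the libraries than in neutrophils. The mitochondrially encoded sum was lower in the library labelled Otud1-/- in NK, monocyte/macrophage and dendritic cells, and by less in T cells. The sum of the mitochondrially encoded members had a log2 ratio of 0.05 in B cells, −0.04 in T cells, −0.15 (−0.17 to −0.13) in NK cells, −0.28 (−0.29 to −0.27) in monocytes and macrophages and −0.27 (−0.28 to −0.25) in dendritic cells. The nuclear sum had 0.09 in B cells, −0.09 in T cells, 0.14 in NK cells, 0.03 in monocytes and macrophages and −0.01 (−0.03 to 0.00) in dendritic cells. Depth also differed, with a median of 3462.5 UMIs per cell in B cells of the library labelled Otud1-/- against 2736.5 in WT. In T cells the median was 4676 against 2299, and in NK cells 4083 against 1346.5. Monocytes and macrophages had 9918 against 2409, and dendritic cells 9441.5 against 2425. In cluster 7 the median was 14057 UMIs per cell in the library labelled Otud1-/- against 3105.5 in WT, with a mitochondrially encoded log2 ratio of 0.04. In plasmacytoid dendritic cells it was 7706.5 against 1998.5, with a log2 ratio of −0.02. The part of depth in these ratios was not tested. None of these 5 classes had a nuclear median log2 ratio beyond 0.15 in size, and that of T cells (−0.06, −0.10 to −0.02) turned positive under TMM factors (0.0024), in cells that had Y-linked but no Xist UMIs (0.06) and in members with transcripts of at least 600 bases (0.02).

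In B cells 0 of 76 nuclear members were higher or lower by 1.5 times, where 0.681% of all 5136 genes compared were higher and 1.77% lower. The highest ratios belonged to Ndufv2, an iron-sulphur subunit of the NADH-binding module (95.5 CPM in the library labelled Otud1-/- and 69.0 CPM in WT, log2 ratio 0.47), Cox5a (283 and 210 CPM, 0.43) and Atp5g1 (236 and 176 CPM, 0.42). The lowest belonged to Atp5k (125 CPM in the library labelled Otud1-/- and 186 CPM in WT, −0.58), Ndufa3 (124 and 176 CPM, −0.51) and Atp5md (201 and 284 CPM, −0.50), all small membrane subunits. Among the abundant members Cox4i1 had 692 CPM in B cells of the library labelled Otud1-/- and 585 CPM in WT (0.24), and Uqcrh had 604 and 527 CPM (0.20). mt-Co1 had 7771 CPM in the library labelled Otud1-/- and 7627 CPM in WT (0.03). mt-Atp8, by contrast, had 102 CPM in the library labelled Otud1-/- and 180 CPM in WT (−0.81, −0.93 to −0.69), and with mt-Nd4l (−0.84) made up the 2 of 13 mitochondrially encoded members lower in B cells. Elsewhere outside neutrophils the mitochondrially encoded members counted as lower were mt-Atp8, mt-Nd4l and mt-Nd6 in T cells, monocytes and macrophages, dendritic cells and cluster 7, mt-Atp8 and mt-Nd6 in NK cells, and mt-Atp8 in cluster 8.

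In T cells 2 of 76 nuclear members were lower and 0 higher, where 4.7% of 5280 genes compared were lower and 0.871% higher. The 2 were Atp5k (138 CPM in the library labelled Otud1-/- and 267 CPM in WT, −0.95) and Ndufa3 (149 and 227 CPM, −0.60), followed by Ndufc1 (85.8 and 127 CPM, −0.56). At the other end stood Uqcrfs1, the Rieske iron-sulphur protein of complex III (141 CPM in the library labelled Otud1-/- and 115 CPM in WT, 0.29), Cox7a2l, which joins complexes III and IV into supercomplexes (459 and 379 CPM, 0.28), and Ndufb10 (162 and 135 CPM, 0.26). In NK cells 3 of 74 nuclear members were higher and 1 lower, beside 6.45% and 8.72% of 4016 genes. The 3 higher were Ndufs3, a core subunit of the ubiquinone-reducing module (79.8 CPM from 71 UMIs in the library labelled Otud1-/- and 48.1 CPM from 37 UMIs in WT, 0.72, 0.14 to 1.34), Ndufa11 (146 and 94.9 CPM, 0.62) and Ndufb10 (170 and 110 CPM, 0.62). Sdha was the 1 lower, on 44 UMIs in the library labelled Otud1-/- and 59 in WT (−0.63, −1.23 to −0.05), ahead of Ndufa3 (−0.48) and Uqcr11 (−0.44). Cox4i1 had 1096 CPM in NK cells of the library labelled Otud1-/- and 818 CPM in WT (0.42, 0.28 to 0.57), and Ndufa4 had 499 and 371 CPM (0.43, 0.21 to 0.65).

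In monocytes and macrophages 1 of 76 nuclear members was lower and 0 higher, beside 4.11% and 5.37% of 5310 genes. That member was Atp5k (161 CPM in the library labelled Otud1-/- and 268 CPM in WT, −0.74), with Ndufa3 (143 and 207 CPM, −0.53) and Atp5mpl (220 and 308 CPM, −0.48) next. The highest were Sdhd (84.2 CPM in the library labelled Otud1-/- and 57.6 CPM in WT, 0.54), Ndufb9 (221 and 169 CPM, 0.39) and Ndufb6 (98.6 and 75.7 CPM, 0.38). Sdhd was thus at the high end in both neutrophils and monocytes and macrophages. mt-Co1 had 4757 CPM in monocytes and macrophages of the library labelled Otud1-/- and 5347 CPM in WT (−0.17), and mt-Cytb had 2595 and 3224 CPM (−0.31). In dendritic cells 4 of 76 nuclear members were lower and 0 higher, beside 7.51% and 2.1% of 4897 genes. Ndufa3 (139 CPM in the library labelled Otud1-/- and 235 CPM in WT, −0.76), Atp5k (149 and 250 CPM, −0.75) and Ndufa5 (66.3 and 101 CPM, −0.60) were lowest, and Atp5md (256 and 388 CPM, −0.60), named after its values were seen, was the other member counted as lower. Ndufv1, which binds NADH and flavin at the tip of complex I (60.3 CPM in the library labelled Otud1-/- and 40.6 CPM in WT, 0.57), Uqcrfs1 (162 and 128 CPM, 0.33) and Atp5f1, the b subunit of the ATP synthase stator (370 and 297 CPM, 0.32), were highest.

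Clusters 7 and 8 were left unnamed by the markers and were compared by number. Cluster 7 had 137 cells in the library labelled Otud1-/- and 580 in WT, and 4 of its 76 nuclear members were lower and 0 higher, beside 6.29% and 4.25% of 5312 genes. Cluster 8, with Rgs13 and Mef2b among its leading genes, had 195 and 421 cells, and 3 of 76 nuclear members were lower and 0 higher, beside 5.22% and 3.63% of 5209 genes. The lowest members were again Atp5k (log2 ratio −0.96 in cluster 7 and −0.88 in cluster 8), Ndufa3 (−0.91 in cluster 7) and Atp5mpl (−0.68 and −0.61), with Ndufa6 (named after its values were seen) at −0.60 in cluster 7 and Ndufc1 at −0.60 in cluster 8. The highest were Ndufv1 (0.44), Atp5g1 (0.42) and Ndufv2 (0.42) in cluster 7, and among the highest in cluster 8 were Sdhc (0.36, −0.24 to 0.99) and Uqcrc2 (0.33). Over the 8 groups compared, Atp5k was among the 3 lowest nuclear members in 7 and Ndufa3 in 6.

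Short transcripts were frequent among the members that were lower in every group. Of the 73 nuclear members compared in neutrophils, 27 had transcripts under 600 bases. Of 73 nuclear members compared in all 8 groups, 11 had a ratio below 1 in all 8: Atp5e, Atp5k, Atp5j2, Atp5md and Atp5mpl of complex V, Ndufa3, Ndufc1 and Ndufv3 of complex I, Uqcr11 of complex III, and Cox6c and Cox7c of complex IV. Of the 13 mitochondrially encoded members, 5 did so, mt-Atp8, mt-Nd4l, mt-Nd3, mt-Nd6 and mt-Nd2. Transcript lengths, from the GENCODE M21 annotation, were 204 bases for mt-Atp8, 297 for mt-Nd4l, 348 for mt-Nd3, 519 for mt-Nd6 and 1038 for mt-Nd2. Those of the nuclear members were 321.5 for Atp5k (a median over transcripts), 362 for Atp5md, 421 for Atp5e, 433 for Ndufa3, 445 for Uqcr11, 489 for Atp5mpl, 540 for Cox7c, 606 for Cox6c, 645 for Ndufv3, 747.5 for Atp5j2 (again a median) and 782 for Ndufc1. The median log2 ratio over the 7 groups other than neutrophils was −0.82 for mt-Atp8, −0.75 for Atp5k, −0.73 for mt-Nd6, −0.69 for mt-Nd4l, −0.57 for Ndufa3, −0.48 for Atp5mpl and −0.44 for Atp5md. In contrast Sdhd (1231 bases) and Ndufb9 (704 bases) had ratios above 1 in all 8 groups, and 16 nuclear members had ratios above 1 in the 7 other groups and below 1 in neutrophils. The same counts over all genes compared were not made, so how far the members depart from other genes is not known.

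Over nuclear members the Spearman correlation of transcript length with the log2 ratio was 0.48 in B cells, 0.46 in T cells, 0.50 in monocytes and macrophages, 0.53 in dendritic cells, 0.63 in cluster 7 and 0.57 in cluster 8 (76 members each). It was 0.24 in NK cells (74 members) and −0.07 in neutrophils (73 members). Over all genes compared the same correlation was −0.50 in B cells and −0.33 in dendritic cells, and between −0.23 and 0.11 in the others. In dendritic cells the 27 nuclear members under 600 bases had a median of −0.14 and the 49 longer ones 0.10. In B cells these medians were 0.05 and 0.23, and in neutrophils both were −0.80. These are correlations across genes that share their libraries, and genes are not independent replicates. The part of transcript length in the ratios of single members was not tested.

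**Figure D4:**
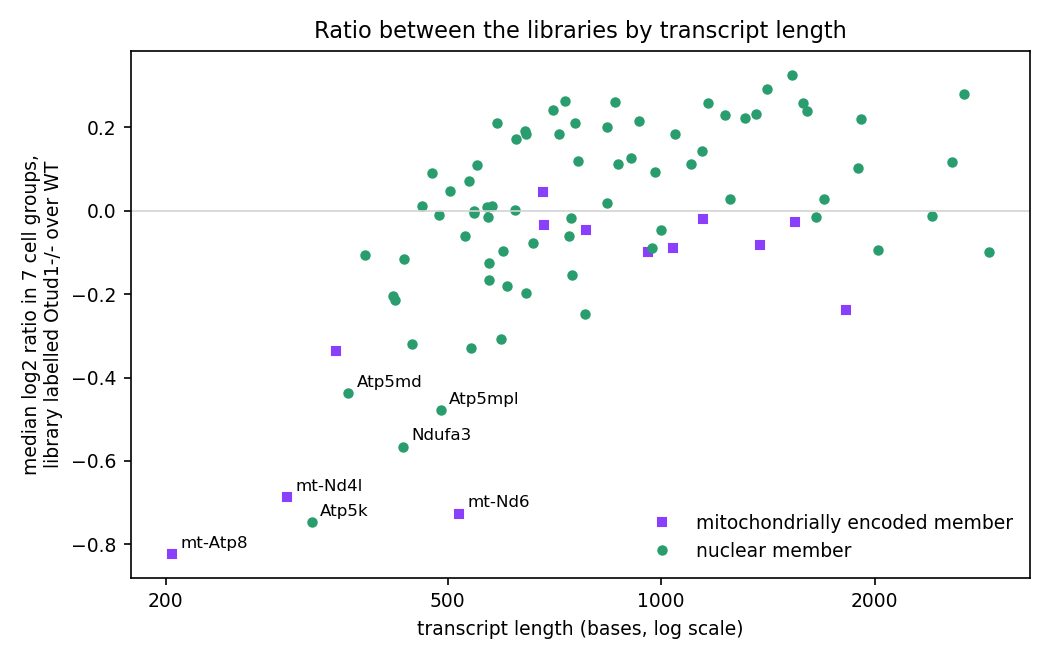
Transcript length in bases (log axis) against the median log2 ratio, library labelled Otud1-/- over WT, over the 7 groups other than neutrophils, for each member compared in all 8 groups. The labelled members lie lowest, from −0.82 for mt-Atp8 to −0.44 for Atp5md, and all of them have transcripts of at most 519 bases.

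Alternative forms of a subunit were nearly all of the common type, with one exception in plasmacytoid dendritic cells. Cox6a2, a form of subunit VIa known from heart and skeletal muscle (chr7:128205435-128206387, − strand, GRCm38), had 998 CPM (644 UMIs) in plasmacytoid dendritic cells of the library labelled Otud1-/- and 873 CPM (1569 UMIs) in those of the WT library. It made up 84.2% (81.4 to 86.7) of the UMIs of Cox6a1 and Cox6a2 there in the library labelled Otud1-/- and 78.5% (76.7 to 80.3) in WT. Cox6a1, the common form, had 187 CPM in these cells of the library labelled Otud1-/- and 239 CPM in WT. The next highest class with at least 50 cells was plasma cells, at 14.8 CPM, in the library labelled Otud1-/- and mast cells and basophils, at 55.1 CPM from 13 UMIs, in WT. Neutrophils had 0.93 CPM in the library labelled Otud1-/- and 3.57 CPM in WT, and monocytes and macrophages 3.52 and 15.8 CPM, and the part of free RNA in these low levels was not tested. Cox6a2 was the only nuclear member whose level in one class was at least 5 times that in any other class of at least 50 cells in both libraries, and it had been used neither for clustering nor as a marker.

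**Figure D5:**
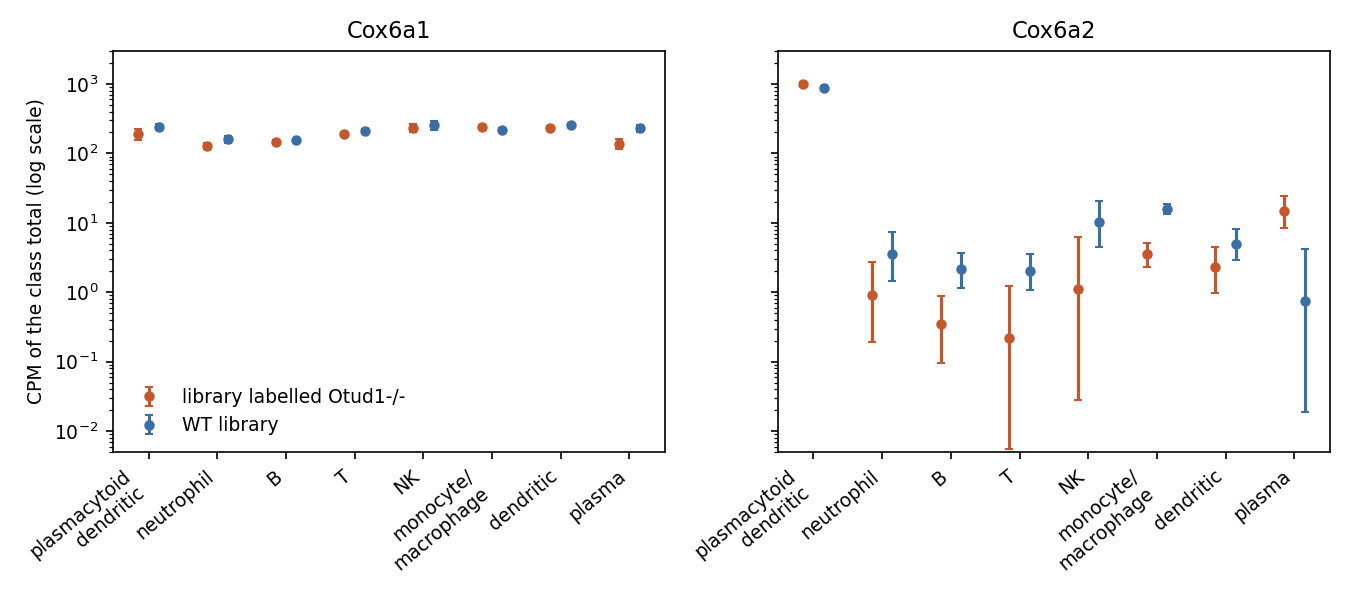
CPM of Cox6a1 (left) and Cox6a2 (right) in 8 cell classes (log axis) in the library labelled Otud1-/- and in WT, with exact Poisson intervals. Cox6a2 reaches 998 CPM in plasmacytoid dendritic cells of the library labelled Otud1-/- and 873 CPM in those of WT, while Cox6a1 stays within one order of magnitude in the classes plotted.

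The other rare forms made up small shares in both libraries. Over all kept cells, Cox4i2, a form known from lung, made up 0.06% of the Cox4 UMIs in the library labelled Otud1-/- and 0.04% in WT. Cox6b2, the testis form, made up 0.91% of Cox6b UMIs in the library labelled Otud1-/- and 1.20% in WT. Among classes of at least 50 cells it was highest in dendritic cells of the library labelled Otud1-/-, at 14.6 CPM (51 UMIs). In WT it was highest in fibroblasts, at 40.5 CPM from 9 UMIs, followed by dendritic cells at 17.5 CPM. Cox7a1, the muscle form, made up 0.25% of the UMIs of Cox7a1, Cox7a2 and Cox7a2l together in the library labelled Otud1-/- and 0.29% in WT. It had 58 UMIs beside 10213 of Cox7a2 in the library labelled Otud1-/-, and 71 beside 11684 in WT. Ndufa4l2, known from hypoxic cells, made up 0.08% of the UMIs of the pair with Ndufa4 in the library labelled Otud1-/- and 0.06% in WT. Cox8c had 0 UMIs in the library labelled Otud1-/- and 1 UMI in WT beside 23723 UMIs of Cox8a in the library labelled Otud1-/- and 24524 in WT. The c-ring subunit came from 3 genes in like proportions, with 27.4% from Atp5g1, 48.6% from Atp5g2 and the rest from Atp5g3 in the library labelled Otud1-/-, and 26.0% and 49.7% from Atp5g1 and Atp5g2 in WT.

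The 15% limit on mitochondrial UMIs was a limit on the members themselves, because the mt- genes in the files are exactly the 13 mitochondrially encoded members. Cells over the limit were not kept, and it bound the libraries unequally. Of the barcodes that passed the other filters, 1069 (14.2%) of the library labelled Otud1-/- and 467 (3.93%) of WT were left out by it. Each left-out barcode was given the class of most of its 15 nearest kept cells of the same library, by which 851 of 3729 B cell barcodes (22.8%) of the library labelled Otud1-/- and 243 of 2295 (10.6%) of WT were left out. In neutrophils 17 barcodes (1.87%) of the library labelled Otud1-/- and 12 (1.32%) of WT were left out. The left-out barcodes were shallow, with a median of 739 UMIs in the library labelled Otud1-/- and 1171 in WT. Just inside the limit, from 14% to 15%, were 53 barcodes of the library labelled Otud1-/- with a median of 1319 UMIs and 79 of WT with 1318. Just outside, from 15% to 16%, were 43 of the library labelled Otud1-/- with 1066 UMIs and 65 of WT with 1265. The median nuclear share of the UMIs outside mitochondrial genes was 0.835% just inside and 0.620% just outside in the library labelled Otud1-/-, and 1.21% and 0.910% in WT.

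Among the 6 main classes, moving the limit changed the mitochondrially encoded share by the most percentage points in B cells. With limits of 5%, 10%, 15% and none, it was 4.03%, 5.39%, 5.67% and 7.34% in B cells of the library labelled Otud1-/-, and 3.74%, 5.05%, 5.48% and 7.06% in WT. It was higher in the library labelled Otud1-/- at each of the 4 settings. In neutrophils it was 0.956%, 1.26%, 1.46% and 1.70% in the library labelled Otud1-/-, and 2.32%, 3.18%, 3.36% and 3.55% in WT, so the order of the libraries was also kept at all 4. The nuclear share of the UMIs outside mitochondrial genes moved little, at 1.58%, 1.52%, 1.51% and 1.47% in B cells of the library labelled Otud1-/- and 1.48%, 1.43%, 1.41% and 1.40% in WT. With a limit of 5% the median log2 ratio of the mitochondrially encoded members came to −0.20 in dendritic cells, −0.25 in monocytes and macrophages and −0.01 in NK cells, closer to 0 than with 15%.

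Most lists of genes that serve the same organelle also had more members lower than higher in neutrophils of the library labelled Otud1-/-, where 32.7% of all genes were lower and 15.4% higher. Of 7 subunits and carriers outside the symbol rule, 6 were lower (median −0.76), among them Cycs, which encodes cytochrome c (64.9 CPM in the library labelled Otud1-/- and 107 CPM in WT, −0.71), and Cyc1, cytochrome c1 of complex III (13.6 and 28.6 CPM, −1.04). Assembly factors were lower in 7 of 14 (median −0.52), mitochondrial ribosomal proteins in 16 of 27 with 1 higher (−0.71), protein import genes in 7 of 11 (−0.61) and tricarboxylic acid cycle genes in 6 of 8 (−0.75). With TMM factors, which add 0.56, the median of the assembly factors lies above 0 and the other medians named here stay below it. The 3 genes of mitochondrial transcription and replication that were compared were all lower. Tfam, which packages and transcribes mitochondrial DNA, had 10.5 CPM (34 UMIs) in the library labelled Otud1-/- and 33.2 CPM (65 UMIs) in WT (−1.61, −2.30 to −1.04), and its level in the library labelled Otud1-/- was likewise below 10% of that in another class. Ssbp1, which binds single-stranded mitochondrial DNA, had 20.4 CPM in the library labelled Otud1-/- and 42.8 CPM in WT (−1.05), and Slirp, which stabilises mitochondrial messengers, had 10.5 and 35.2 CPM (−1.70). Of 5 nuclear regulators 0 were lower and 2 higher, Hif1a, the hypoxia-inducible transcription factor (506 CPM in the library labelled Otud1-/- and 249 CPM in WT, 1.02), and Nfe2l2, the regulator of antioxidant genes (1058 and 656 CPM, 0.69). Mitochondrial oxidant defence had 1 of 7 lower and 0 higher. Its median of −0.07 (−0.83 to 0.45) had an interval that included the median of all genes, −0.21.

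Glycolysis genes were higher in 8 of 18 and lower in 0 in neutrophils, with a median of 0.48 (0.11 to 0.72), where 15.4% of all genes were higher and 32.7% lower. Pfkfb3, which makes the activator of phosphofructokinase, had 296 CPM in the library labelled Otud1-/- and 91.8 CPM in WT (1.68, 1.46 to 1.93). The glucose transporter Slc2a3 had 178 CPM in the library labelled Otud1-/- and 84.7 CPM in WT (1.07), and these examples were chosen after their values were seen. Cytosolic ribosomal protein genes, which are no part of the organelle, were lower in 81 of 82 with a median of −1.52, below that of either set of members. In cluster 1 alone 18.3% of all genes were lower and their median was −0.06, and only some of these lists lay near that background. Protein import had 1 of 9 lower (−0.05) and oxidant defence 0 of 7 (−0.13). The subunits and carriers outside the symbol rule had 2 of 5 lower, with a median of 0.05. The tricarboxylic acid cycle had 2 of 7 (−0.34) and assembly factors 5 of 10 (−0.61). There the mitochondrial ribosomal proteins had 2 higher and 2 lower of 16 (−0.19), glycolysis 5 higher and 1 lower of 18 (0.27) and the cytosolic ribosomal proteins 68 lower of 82 (−0.84). In monocytes and macrophages glycolysis genes were higher in 12 of 17 (median 0.78) beside 0 of 76 nuclear members and 5.37% of all genes, and in NK cells in 5 of 11 (0.55) beside 6.45% of all genes.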

How the data were processed

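The authors deposited 1 matrix per library of raw UMI counts (whole numbers, genes by barcodes), made with Cell Ranger 6.0.1 per the file headers. The tools listed per the submitters' processing notes were Cell Ranger 5.0.0 and Seurat 3.2.3, with mm10. Members, gene lists and comparisons were chosen with earlier results of these data known. Barcodes with at least 200 genes and at most 15% mt- counts were kept. Automatic doublet calls marked 0 barcodes in either library, so the highest doublet scores at 0.8% per 1000 barcodes were removed (450 in the library labelled Otud1-/- and 1355 in WT). Both libraries were clustered together with scanpy 1.11.5 (2000 variable genes without members, mitochondrial, ribosomal, immunoglobulin, T cell receptor and sex-linked genes or Otud1, 30 components, 20 neighbours, Leiden resolution 1). Clusters were named from fixed markers. Counts were summed per class and library and scaled to CPM of the class total, with a prior of 0.5 CPM in log2 ratios. Classes with at least 100 cells in each library were compared. Intervals were exact Poisson (CPM), Clopper-Pearson (shares), conditional binomial (ratios) and binomial order statistics (medians), all at 95%. UMIs are molecules, but 1 library per genotype means that these intervals hold no variation between animals. Named genes were all mitochondrially encoded members, the 2 nuclear members of highest mean CPM per complex, the 3 highest and 3 lowest nuclear ratios per class, the isoform pairs and nuclear members at least 5 times higher in one class. One gene that this rule names is not reported here. The ratio calculation was tested on simulated data. Alternatives covered limits, doublets, scaling, level minimums and cell subsets.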

Additional observations from a re-analysis of the deposited data

Results flagged for a closer look

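The mitochondrially encoded sum pointed in opposite directions in neutrophils and B cells, with log2 ratios of −1.20 and 0.049 (library labelled Otud1-/- over WT). The nuclear sum did the same in neutrophils (−0.62) against B cells (0.0912), NK cells (0.14) and monocytes and macrophages (0.0317). With 1 library per genotype, the difference between classes was not tested. The barcodes outside the comparisons were unequal between libraries: 22.8% of B cell barcodes of the library labelled Otud1-/- were left out by the 15% limit, against 10.6% in WT. The cause of this was not tested.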

How the results depend on the processing

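No paired analysis was possible because each genotype had 1 library, and for the same reason no library could be left out. Over the main classes, 164 alternative values stayed within the interval of the median reported or within 1.5 times of a count. Another 37 moved beyond that range, and 3 changed sign from a median whose interval excluded 0. The interval of a median reflects the spread between members and not counting error. A further 7 changes of sign were of medians whose interval included 0, that of the mitochondrially encoded members in B cells (−0.03, up to 0.0842) and the nuclear one in dendritic cells (0.0075, down to −0.094). The neutrophil median of the mitochondrially encoded members (−1.24) was below 0 in every setting run. It was −1.09 with no limit, −0.90 with doublets kept, −1.04 in cells that had Y-linked but no Xist UMIs (Y-linked cells), −0.68 with TMM, −1.03 with median of ratios and −1.004 in cluster 1. The nuclear median (−0.80) was likewise below 0 throughout, at −0.66 with doublets kept, −0.66 in Y-linked cells, −0.24 with TMM, −0.59 with median of ratios, −1.002 as a mean of cell shares, −0.38 in cluster 1 and −0.37 in cells with no lymphoid marker UMI. The count of 50 of 73 nuclear members lower (32.7% of all genes) became 20 of 73 with TMM (16.3% of all genes), 31 of 51 at a 50 CPM minimum (22.7%), 33 of 46 for transcripts of at least 600 bases (32%), 21 of 64 in cluster 1 (18.3%), 14 of 50 in cells with no lymphoid marker UMI (12.5%) and 26 of 73 at a fold of 2 (19.9%). The T cell nuclear median (−0.06) reversed to 0.0557 in Y-linked cells, 0.0024 with TMM and 0.0169 for the longer transcripts, and was −0.17 by cell shares. With TMM, nuclear medians were 0.26 (B) and 0.17 (dendritic), and mitochondrially encoded ones −0.0165 (T), −0.12 (NK) and −0.17 (dendritic). At a 5% limit the mitochondrially encoded medians were −0.0033 (T), −0.0076 (NK), −0.25 (monocyte/macrophage) and −0.20 (dendritic). By cell shares, they were −0.0114 (T) and −0.23 (dendritic), and the nuclear ones 0.0208 (NK) and −0.094 (dendritic). For transcripts of at least 600 bases the nuclear medians were 0.23 (B), 0.12 (monocyte/macrophage) and 0.10 (dendritic), and in Y-linked cells 0.23 (NK). The cause of these shifts was not tested. Cluster 1, the lymphoid marker restriction and the length restriction were chosen after seeing the data. At Leiden resolution 0.5 no dendritic comparison was obtained.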
